A study of Homo sapiens with 12 samples.

Results

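The genes described here are 44 chaperones, heat shock proteins, their co-factors and their transcription factors, taken by gene symbol. They serve protein folding in the cytosol, the nucleus and the mitochondria, apart from SERPINH1, which works in the endoplasmic reticulum (ER). All 44 had a row in the gene tables of all 12 libraries, out of 40929 gene symbols, and 42 of them were among the 15104 genes with enough counts to be tested. The RNA came from MDA-MB-231, a human line established from a breast cancer without oestrogen receptor, progesterone receptor or HER2 overexpression, and was measured by RNA sequencing. The cells, labelled wild type, were grown in RPMI with 10% fetal bovine serum and treated for 48 h. The 4 groups had 3 libraries each: CAR had 10 mM glucose and 25 µM cariporide, LG had 5 mM glucose, LGCAR had 5 mM glucose and 25 µM cariporide, and NG had 10 mM glucose and no drug. Cariporide inhibits the sodium-proton exchanger NHE1, which exports acid from cells. A single line was studied. The labels do not say whether replicate libraries stem from different cultures, and p-values then measure only the spread between libraries, which may be technical.

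Chaperones bind proteins that are unfolded, newly made or damaged and help them to reach or regain their folded shape. HSP70 proteins bind short stretches of a client with the help of HSP40 (DNAJ) proteins, HSP90 finishes the folding of kinases and receptors, and the closed rings of CCT and of mitochondrial HSP60 fold proteins inside a chamber. The transcription factor HSF1 is held inactive by chaperones and raises many of these genes when unfolded protein accumulates. It binds heat shock elements, which are inverted repeats of the unit GAA.

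Levels are given as CPM, which is a gene's count relative to the size of its library, with library sizes scaled by the TMM method, and differences as log2 fold changes. A gene was called when its Benjamini-Hochberg adjusted p, over all 15104 genes, was under 0.05 in edgeR's quasi-likelihood test. The libraries held 18069004 to 24837409 counts, the common coefficient of variation was 6.94%, and pairs of libraries of a group differed by more than sampling noise (chi-square per degree of freedom 2.79 to 23.8). The share of counts from cytosolic ribosomal RNA was 7.87% ± 0.723 in CAR, 8.65% ± 0.649 in LG, 10.2% ± 1.12 in LGCAR and 9.48% ± 1.67 in NG (SD, n = 3 each). The labels call the cells epithelial, while the epithelial genes CDH1 and EPCAM stood at only 0.954 to 2.47 and 8.74 to 13.8 CPM, and VIM, a mesenchymal gene that is high in this line, stood at 1611 to 1864 CPM. PGR was at 0 counts in every library and ESR1 reached at most 0.188 CPM. Among the reported markers of immune, endothelial, fibroblast and fat cells, CD3E was at 0 in every library and CD68 was the highest, at 53.9 to 73.2 CPM.

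Where chaperone genes changed they were lower at 5 mM glucose, with and without cariporide, and with all 12 libraries in the fit none was called higher in any comparison. In LG against NG 6 of the 42 tested members fell and 36 were not called, while 1.73% of all tested genes were called, 0.728% lower and 1% higher. In LGCAR against NG 16 fell and 26 were not called, while 8.75% of all tested genes were called, 4.12% lower and 4.63% higher. The 6 genes that fell in LG (HSPA1A, HSPA1B, HSPA8, DNAJA1, DNAJB1 and CHORDC1) were all among the 16. The changes were small: the median log2 fold change of the members was -0.07 in CAR, -0.12 in LG and -0.17 in LGCAR against NG, where the medians of all tested genes were 0.00, 0.01 and 0.01. The 3 comparisons share the NG libraries. The members were chosen with earlier results of these data known, so their counts beside the shares of all genes are no independent test. In RNA from whole cultures, fewer cells with a gene's RNA and less RNA per cell cannot be told apart.

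By library, all 3 LG libraries lay below all 3 NG libraries in 24 of 42 members, against 9.51% of all tested genes, and above them in 1 member, BAG1, against 9.86%. All 3 LGCAR libraries lay below all 3 NG libraries in 32 members, against 17.5% of all tested genes, and above them in 1 member, HSPA4L, against 20.7%. For CAR against NG these counts were 8 lower and 0 higher, against 4.67% and 4.44% of all tested genes. Leaving out NG 2, NG 3 or LG 1 left 3 members called each in LG against NG, and leaving out LG 2 left 2, while the calls over all genes numbered 98, 83, 88 and 99 in place of 261. In LGCAR against NG 8 members were called without NG 2, 6 without NG 3, 5 without LGCAR 1 and 9 without LGCAR 3, while the calls over all genes numbered 293, 136, 197 and 335 in place of 1322.

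**Figure D1:**
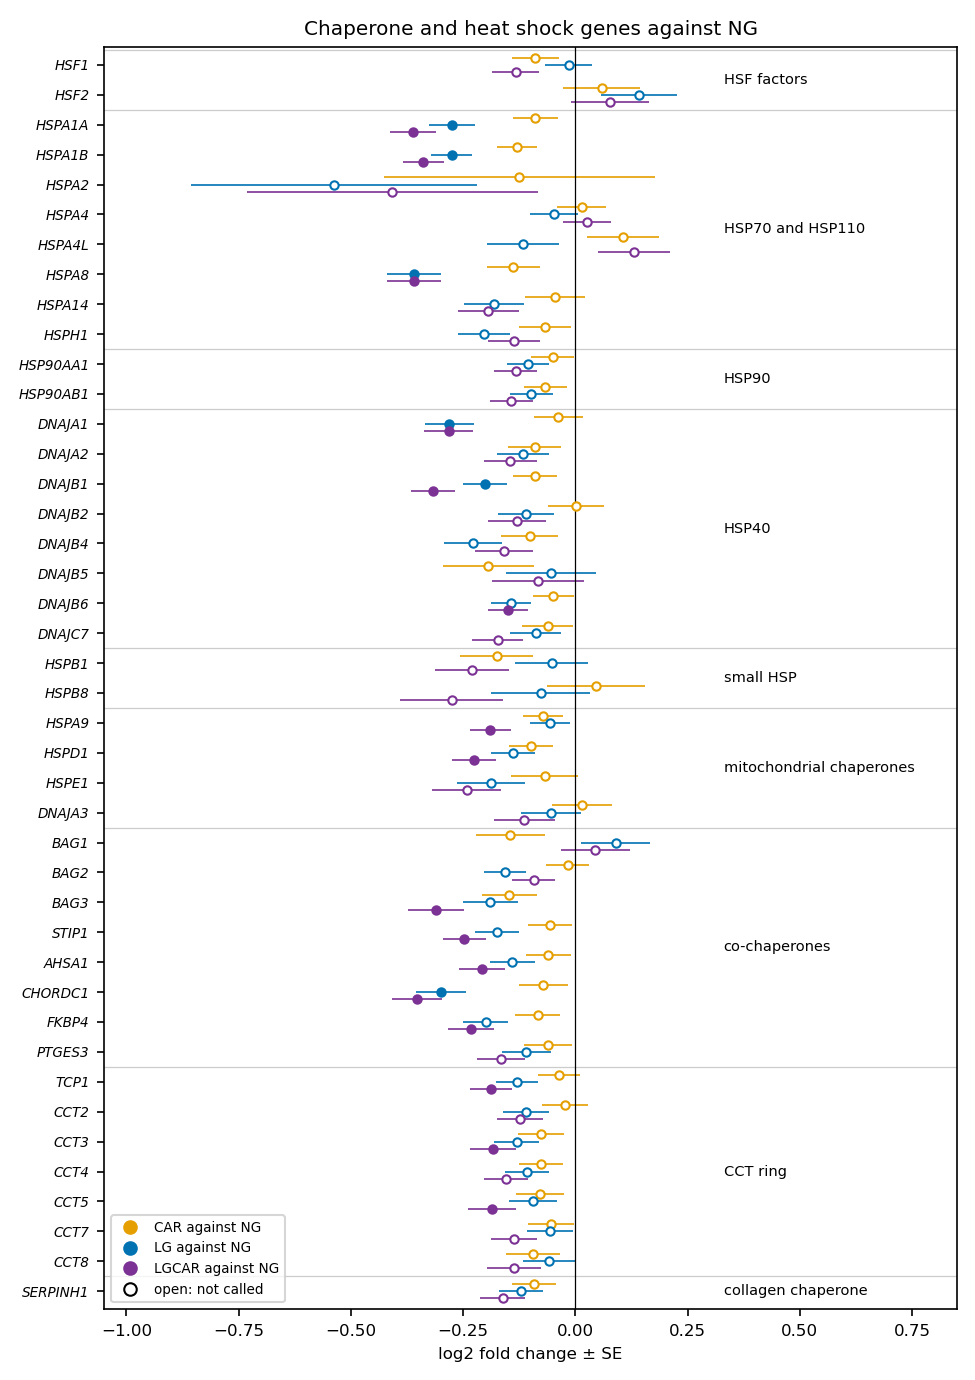
Log2 fold change against NG with its standard error for the 42 tested members, by class, for CAR, LG and LGCAR; filled points have an edgeR adjusted p under 0.05. All filled points lie below 0, 6 of them for LG and 16 for LGCAR, and HSF2, HSPA4, HSPA4L and BAG1 lie above 0 in LGCAR.

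Per length of transcript, the most abundant members in NG were HSP90AB1, with 708 ± 29.1 CPM per kb, and HSPA8, with 690 ± 57.1 CPM per kb (SD, n = 3 each), values that did not differ beyond their spread. HSP90AA1 followed with 426 ± 14.5 CPM per kb and HSPD1 with 246 ± 13.5. On the CPM scale HSP90AA1, HSP90AB1 and HSPA8 together made up 45.2% of the summed level of all members in NG. The least abundant tested member was HSPA2, a testis-enriched HSP70, with 0.176 ± 0.0700 CPM per kb. DNAJA4, an HSP40, had 1 to 8 counts in each library, and CRYAB, the small heat shock protein alpha-B-crystallin, had 1 count in NG 3 and 0 in each of the other 11 libraries, so neither was tested.

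**Figure D2:**
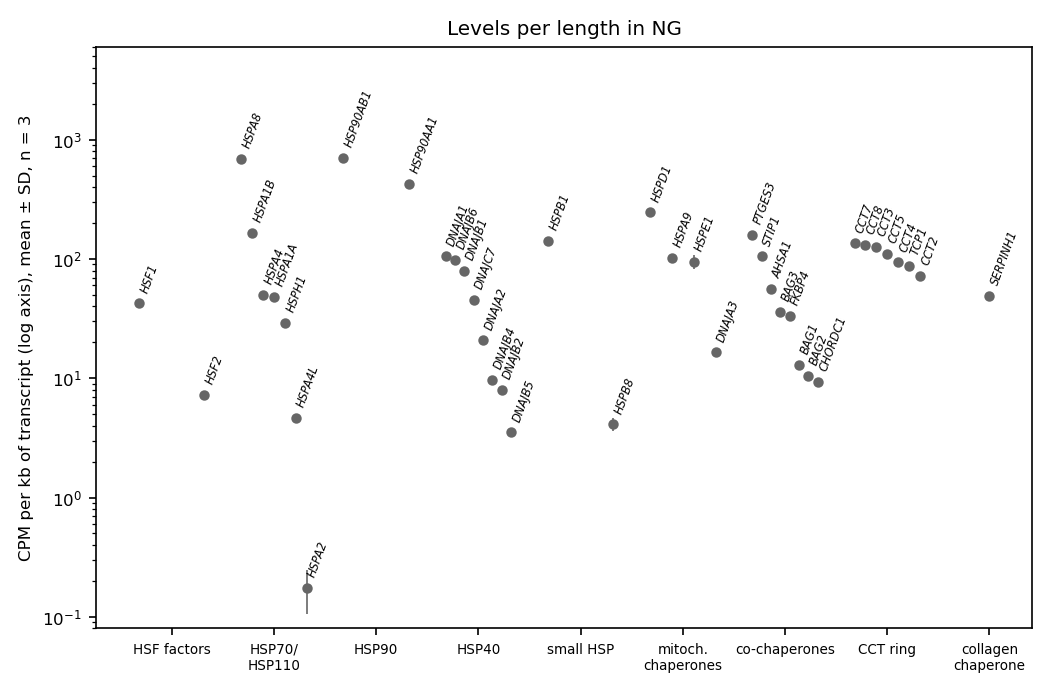
Mean level in NG per kb of transcript, on a log axis, with the SD of 3 libraries, for 41 of the 42 tested members, by class; HSPA14 has no length here. HSP90AB1 and HSPA8 are at the top, and HSPA2 is at the bottom with 0.176 CPM per kb.

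Neither of the heat shock transcription factors was called in any comparison. HSF1, the main factor of the heat shock response, had 95.6, 84.3 and 88.5 CPM in CAR, 92.5, 96.0 and 94.1 CPM in LG, 85.1, 88.0 and 87.3 CPM in LGCAR, and 97.7, 95.4 and 92.5 CPM in NG. The LGCAR libraries lay below all LG and NG libraries, and CAR and LG overlapped NG. The log2 fold change of HSF1 was -0.09 in CAR, -0.01 in LG and -0.13 in LGCAR against NG (SE 0.0520, 0.0520 and 0.0524, edgeR adjusted p = 0.894, 0.928 and 0.108). HSF2, a related factor that can pair with HSF1, had 21.5, 18.7 and 20.9 CPM in CAR, 20.2, 21.8 and 23.0 CPM in LG, 18.2, 23.0 and 20.9 CPM in LGCAR, and 18.6, 20.2 and 20.0 CPM in NG. All 4 groups overlapped. HSF1 is activated at the protein level, which these data do not measure.

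The HSP70 and HSP110 genes, which bind unfolded clients and exchange their nucleotide, had the lowest summed level relative to NG of all classes in LG and LGCAR. Of 8 tested members, HSPA1A, HSPA1B and HSPA8 fell in LG and in LGCAR, and 5 were not called in either. Their summed level was 2678 ± 35.4 CPM in CAR, 2351 ± 42.6 CPM in LG, 2359 ± 23.3 CPM in LGCAR and 2894 ± 144 CPM in NG (SD, n = 3 each), which is 92.5%, 81.3% and 81.5% of the NG mean in CAR, LG and LGCAR. HSPA8 (HSC70), the constitutive HSP70, made up most of that sum.

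HSPA8 had 1761, 1654 and 1661 CPM in CAR, 1383, 1478 and 1494 CPM in LG, 1425, 1464 and 1466 CPM in LGCAR, and 1720, 1840 and 2026 CPM in NG. All LG and LGCAR libraries lay below all CAR and NG libraries, and CAR overlapped NG. Against NG, HSPA8 changed by -0.36 on the log2 scale in LG, with an SE of 0.0598 and an edgeR adjusted p of 0.00516, and by -0.36 in LGCAR, with an SE of 0.0598 and an edgeR adjusted p of 0.00454. It was not called in CAR (-0.14, SE 0.0597, edgeR adjusted p = 0.894).

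HSPA1A and HSPA1B are stress-inducible HSP70 genes. They lie 9795 bases apart on chromosome 6 (HSPA1A from 31815543 to 31817942 and HSPA1B from 31827738 to 31830254, GRCh38.p14). HSPA1A had 116, 105 and 116 CPM in CAR, 101, 97.2 and 98.0 CPM in LG, 96.3, 91.0 and 91.6 CPM in LGCAR, and 123, 119 and 117 CPM in NG. HSPA1B had 382, 375 and 391 CPM in CAR, 352, 350 and 335 CPM in LG, 339, 323 and 332 CPM in LGCAR, and 433, 412 and 412 CPM in NG. For both genes the LG and LGCAR libraries lay below all CAR libraries, and the CAR libraries below all NG libraries. HSPA1A changed by -0.28 in LG (SE 0.0513, edgeR adjusted p = 0.0107) and by -0.36 in LGCAR (SE 0.0517, edgeR adjusted p = 0.00180) against NG. HSPA1B changed by -0.28 in LG (SE 0.0447, edgeR adjusted p = 0.00454) and by -0.34 in LGCAR (SE 0.0448, edgeR adjusted p = 0.00111). In CAR neither was called, with -0.09 for HSPA1A and -0.13 for HSPA1B (edgeR adjusted p = 0.894 each). Without LG 2 HSPA1A was no longer called in LG (edgeR adjusted p = 0.0622).

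How the counting split reads between these 2 genes is not known, so their separate values are uncertain. Their reading frames differ at 4 of 1926 bases (99.8% identical), with an identical run of 1709 bases, whereas HSPA1A and HSPA8 are 74.9% identical. The ratio of HSPA1B to HSPA1A counts stayed between 3.29 and 3.63 in the 12 libraries. HSPA1B also shares 36.5% of its exon length with another annotated transcript on the same strand. With both genes summed into 1 row, 4 members were called in LG against NG and 16 in LGCAR against NG. Of all genes 258 and 1336 were called in that setting.

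The upstream windows of the HSP70 genes that fell are shown because HSF1 is known to act on this family through heat shock elements near the start. Each runs 5′ to 3′ from 250 bases before to 50 bases after a RefSeq start on GRCh38.p14. In HSPA8 the capitals mark matches to the 3-unit motif GAANNTTCNNGAA on either strand, and in HSPA1A and HSPA1B they mark a match to the 2-unit motif GAANNTTC.
HSPA8 (chr11:123062087-123062386, minus strand): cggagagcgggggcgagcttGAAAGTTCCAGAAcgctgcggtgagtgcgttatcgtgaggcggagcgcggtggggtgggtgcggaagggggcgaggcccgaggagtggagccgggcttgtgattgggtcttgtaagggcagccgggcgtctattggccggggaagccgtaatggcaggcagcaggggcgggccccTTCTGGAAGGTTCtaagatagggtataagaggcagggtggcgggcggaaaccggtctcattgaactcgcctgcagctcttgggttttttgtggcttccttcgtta
HSPA1A (chr6:31815293-31815592, plus strand): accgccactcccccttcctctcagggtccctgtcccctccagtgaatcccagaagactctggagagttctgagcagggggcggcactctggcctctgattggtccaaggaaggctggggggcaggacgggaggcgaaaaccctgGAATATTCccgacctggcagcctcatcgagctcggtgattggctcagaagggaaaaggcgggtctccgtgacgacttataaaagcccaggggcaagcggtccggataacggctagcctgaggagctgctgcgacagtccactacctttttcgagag
HSPA1B (chr6:31827488-31827787, plus strand): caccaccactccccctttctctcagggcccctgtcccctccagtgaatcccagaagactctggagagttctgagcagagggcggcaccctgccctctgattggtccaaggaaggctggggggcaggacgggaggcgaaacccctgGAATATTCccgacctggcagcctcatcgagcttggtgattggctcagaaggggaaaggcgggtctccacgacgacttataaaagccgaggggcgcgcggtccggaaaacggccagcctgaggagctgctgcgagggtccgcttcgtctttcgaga
HSPA8 held 2 exact matches to the 3-unit motif, and HSPA1A and HSPA1B held none and 1 exact match each to a 2-unit motif. Units that depart from the motif by a letter were not searched for. The windows of HSPA1A and HSPA1B were 92.6% identical.

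The other HSP70 and HSP110 members were not called against NG. HSPH1, an HSP110 that exchanges the nucleotide of HSP70, had a log2 fold change of -0.20 in LG (edgeR adjusted p = 0.0902) and -0.14 in LGCAR (edgeR adjusted p = 0.133). HSPA14, which works at the ribosome, had -0.18 in LG and -0.19 in LGCAR. HSPA4, another HSP110, stood at 219 to 247 CPM in LG, 243 to 255 CPM in LGCAR and 241 to 245 CPM in NG, and its log2 fold change was -0.05 in LG and 0.03 in LGCAR. HSPA4L, its relative, had -0.12 in LG and 0.13 in LGCAR. HSPA2 had -0.54 in LG and -0.41 in LGCAR at levels near 1 CPM (SE 0.319 and 0.324).

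**Figure D3:**
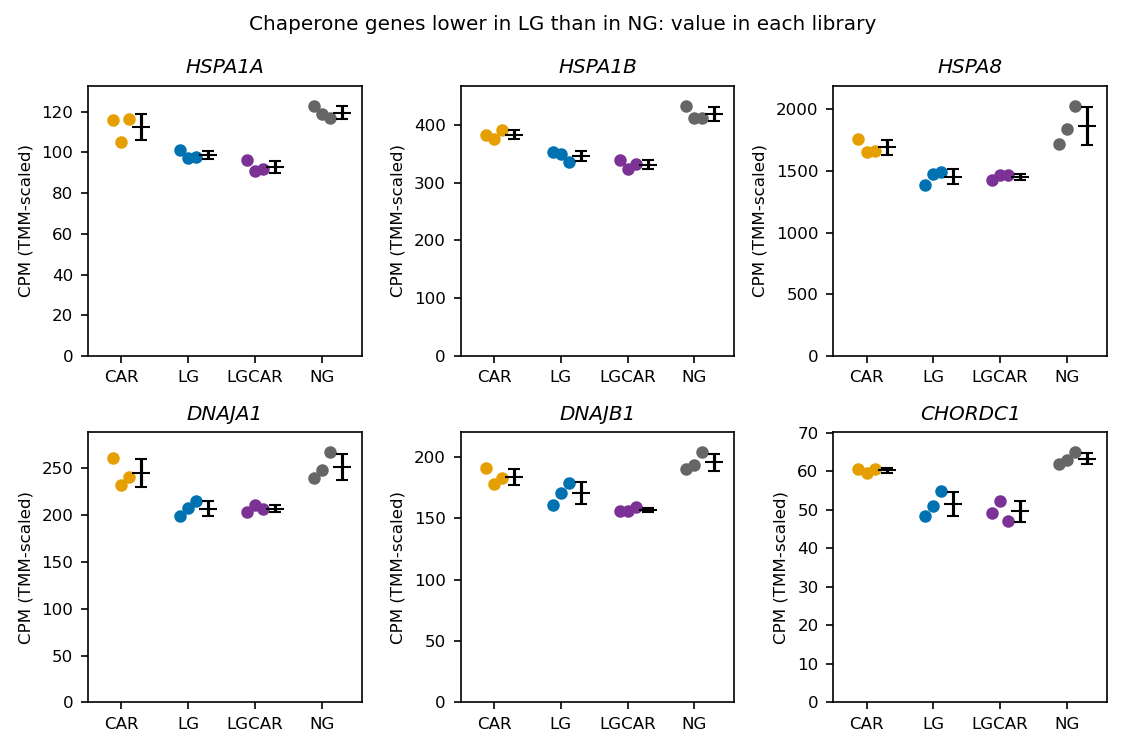
CPM of each library (points) with the mean and SD of 3 libraries (black) for the 6 members that fell in LG against NG, with groups ordered CAR, LG, LGCAR and NG and axes from 0. In each panel the LG and LGCAR points lie below all NG points, for example 1383 to 1494 CPM against 1720 to 2026 CPM for HSPA8.

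The cytosolic HSP90 genes, whose products mature kinases and steroid receptors, were lower by less and were not called. HSP90AA1, the inducible form, had 1622, 1650 and 1702 CPM in CAR, 1591, 1621 and 1576 CPM in LG, 1540, 1591 and 1567 CPM in LGCAR, and 1654, 1728 and 1770 CPM in NG. HSP90AB1, the constitutive form, had 2044, 1993 and 2008 CPM in CAR, 1951, 1987 and 1978 CPM in LG, 1873, 1936 and 1929 CPM in LGCAR, and 2014, 2138 and 2181 CPM in NG. For both genes all LG and LGCAR libraries lay below all NG libraries, while CAR overlapped NG. The log2 fold change of HSP90AA1 was -0.11 in LG and -0.13 in LGCAR (SE 0.0476 each, edgeR adjusted p = 0.305 and 0.0814). HSP90AB1 had -0.10 in LG and -0.14 in LGCAR (SE 0.0483 each, edgeR adjusted p = 0.349 and 0.0694). Their reading frames are 76.6% identical, with no identical run over 23 bases.

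Of the HSP40 genes, which bring clients to HSP70 and start its ATP cycle, 2 of 8 tested members fell in LG and 3 in LGCAR against NG. DNAJA1, a partner of HSPA8, had 261, 232 and 241 CPM in CAR, 199, 207 and 215 CPM in LG, 203, 211 and 206 CPM in LGCAR, and 239, 248 and 267 CPM in NG. DNAJB1, the main stress-inducible HSP40, had 191, 178 and 183 CPM in CAR, 161, 171 and 179 CPM in LG, 156, 156 and 159 CPM in LGCAR, and 190, 194 and 204 CPM in NG. DNAJA1 was low in all 6 libraries at 5 mM glucose, below every library at 10 mM, whereas the DNAJB1 libraries of LGCAR lay below those of LG and those of LG overlapped CAR. DNAJA1 changed by -0.28 in LG (SE 0.0546, edgeR adjusted p = 0.0135) and by -0.28 in LGCAR (SE 0.0547, edgeR adjusted p = 0.00933). DNAJB1 changed by -0.20 in LG (SE 0.0492, edgeR adjusted p = 0.0483) and by -0.32 in LGCAR (SE 0.0495, edgeR adjusted p = 0.00295).

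DNAJB6, which keeps aggregation-prone proteins soluble, had 327, 314 and 314 CPM in CAR, 285, 299 and 311 CPM in LG, 297, 298 and 295 CPM in LGCAR, and 322, 331 and 336 CPM in NG. Its LG and LGCAR libraries lay below all NG libraries, and it was called in LGCAR, where it changed by -0.15 with an SE of 0.0454 (edgeR adjusted p = 0.0496). In LG the value was -0.14 (edgeR adjusted p = 0.134). The call of DNAJA1 in LG was lost when any of NG 2, NG 3, LG 1 and LG 2 was left out (with an edgeR adjusted p up to 0.0937) and in LGCAR without NG 3 or LGCAR 1 (up to 0.0615). That of DNAJB1 in LG was lost without any library but LG 3 (up to 0.237), and that of DNAJB6 in LGCAR without any library but NG 1 (up to 0.180). Of 11 other settings, 5 also lost the call of DNAJB1 in LG (edgeR adjusted p up to 0.144): library totals as scaling, the compared groups alone, the replicate block, NG 1 and LGCAR 3 left out, and HSPA1A and HSPA1B summed. The call of DNAJB6 in LGCAR was lost in 5 of them as well (edgeR adjusted p up to 0.112): library totals, no filter, the replicate block, the ribosomal RNA share as a covariate, and NG 1 and LGCAR 3 left out. DNAJA2, DNAJB2, DNAJB4, DNAJB5 and DNAJC7 were not called, with log2 fold changes of -0.23 (DNAJB4) to -0.06 (DNAJB5) in LG and -0.17 (DNAJC7) to -0.08 (DNAJB5) in LGCAR.

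The upstream windows of the HSP40 genes that fell in LG are shown for the same motifs. The capitals mark a 3-unit match in DNAJA1 and 2-unit matches in DNAJB1, for which the listed start with the most matches is given.
DNAJA1 (chr9:33025023-33025322, plus strand): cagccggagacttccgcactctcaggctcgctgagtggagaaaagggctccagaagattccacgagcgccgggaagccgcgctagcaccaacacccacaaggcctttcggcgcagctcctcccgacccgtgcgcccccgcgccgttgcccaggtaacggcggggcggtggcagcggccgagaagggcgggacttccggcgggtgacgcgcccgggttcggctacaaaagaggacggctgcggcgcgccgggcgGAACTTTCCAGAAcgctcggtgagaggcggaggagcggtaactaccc
DNAJB1 (chr19:14518348-14518647, minus strand): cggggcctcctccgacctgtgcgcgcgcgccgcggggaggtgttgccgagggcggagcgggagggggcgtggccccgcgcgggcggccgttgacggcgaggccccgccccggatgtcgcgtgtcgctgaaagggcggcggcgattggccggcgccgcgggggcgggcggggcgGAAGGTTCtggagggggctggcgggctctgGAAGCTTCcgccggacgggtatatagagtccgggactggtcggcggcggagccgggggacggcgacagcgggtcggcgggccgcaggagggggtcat
DNAJA1 held 1 match to the 3-unit motif close to its start, and DNAJB1 held 2 matches to the 2-unit motif and none to the 3-unit motif.

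Small heat shock proteins hold unfolded proteins without using ATP, and neither of the 2 tested genes was called. HSPB1 (HSP27) had 154, 120 and 127 CPM in CAR, 132, 146 and 158 CPM in LG, 129, 127 and 130 CPM in LGCAR, and 158, 143 and 152 CPM in NG. The LGCAR libraries lay below all LG and NG libraries, and CAR spread across the other groups. HSPB1 had a log2 fold change of -0.05 in LG and -0.23 in LGCAR (SE 0.0812 and 0.0818, edgeR adjusted p = 0.818 and 0.0824). HSPB8, a partner of BAG3 in selective autophagy, had 9.93, 8.59 and 8.99 CPM in CAR, 7.87, 8.22 and 9.23 CPM in LG, 6.78, 7.36 and 7.93 CPM in LGCAR, and 8.58, 7.88 and 10.2 CPM in NG. All groups overlapped NG, and the log2 fold change in LGCAR was -0.28 (SE 0.115, edgeR adjusted p = 0.126).

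Of the mitochondrial chaperones, none of 4 was called in LG, and HSPA9 and HSPD1 fell in LGCAR. HSPA9 (mortalin), the HSP70 that pulls imported proteins into the mitochondrion, had 464, 453 and 463 CPM in CAR, 458, 460 and 477 CPM in LG, 414, 440 and 419 CPM in LGCAR, and 476, 475 and 501 CPM in NG. HSPD1 (HSP60), the folding ring, had 603, 574 and 591 CPM in CAR, 564, 568 and 589 CPM in LG, 534, 555 and 532 CPM in LGCAR, and 602, 623 and 670 CPM in NG. For both genes the LGCAR libraries were the lowest, below all libraries of the other 3 groups. HSPA9 changed by -0.19 in LGCAR (SE 0.0451, edgeR adjusted p = 0.0216) and by -0.06 in LG (edgeR adjusted p = 0.614). HSPD1 changed by -0.23 in LGCAR (SE 0.0493, edgeR adjusted p = 0.0156) and by -0.14 in LG (edgeR adjusted p = 0.184). Both calls were lost without NG 2, NG 3, LGCAR 1 or LGCAR 3, with edgeR adjusted p up to 0.112 for HSPA9 and 0.0891 for HSPD1.

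HSPE1 (HSP10), the lid of the HSPD1 ring, is transcribed away from HSPD1 from a start 104 bases away. It had 99.4, 90.0 and 90.8 CPM in CAR, 81.3, 85.3 and 91.6 CPM in LG, 81.6, 83.6 and 83.3 CPM in LGCAR, and 88.4, 92.9 and 112 CPM in NG. NG 3 was the highest library, the LGCAR libraries lay below all NG libraries, and LG overlapped NG. The log2 fold change was -0.19 in LG and -0.24 in LGCAR (SE 0.0758 and 0.0763, edgeR adjusted p = 0.250 and 0.0565). DNAJA3, the HSP40 partner of HSPA9, had -0.05 in LG and -0.11 in LGCAR and was not called. The window of the first listed start of HSPD1 and that of HSPE1 held no 3-unit and no 2-unit match. The window upstream of a second listed start of HSPD1, which lies inside the annotated gene, is shown. It holds 2 overlapping 3-unit matches, in capitals.
HSPD1 (chr2:197499791-197500090, minus strand): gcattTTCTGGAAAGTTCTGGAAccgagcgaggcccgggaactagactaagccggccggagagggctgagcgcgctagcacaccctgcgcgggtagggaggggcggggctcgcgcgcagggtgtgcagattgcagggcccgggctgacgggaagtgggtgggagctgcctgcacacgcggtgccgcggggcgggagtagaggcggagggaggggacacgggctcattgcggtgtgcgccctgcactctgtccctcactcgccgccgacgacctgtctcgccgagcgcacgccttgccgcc
HSPE1 shares 14.2% of its exon length with HSPD1 on the opposite strand.

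Among co-chaperones, which choose clients for HSP70 and HSP90 or pace their cycle, CHORDC1 fell in LG, and 5 of 8 members (BAG3, STIP1, AHSA1, CHORDC1 and FKBP4) fell in LGCAR. CHORDC1, a binding partner of HSP90, had 60.6, 59.5 and 60.5 CPM in CAR, 48.4, 51.1 and 54.8 CPM in LG, 49.2, 52.3 and 47.1 CPM in LGCAR, and 61.9, 63.0 and 64.8 CPM in NG. All 6 libraries at 5 mM glucose lay below all CAR libraries, which lay below all NG libraries. CHORDC1 changed by -0.30 on the log2 scale in LG (SE 0.0558, edgeR adjusted p = 0.0111) and by -0.35 in LGCAR (SE 0.0565, edgeR adjusted p = 0.00350) against NG. It was not called in LG when any of NG 2, NG 3, LG 1 and LG 2 was left out (with an edgeR adjusted p up to 0.0754). Its upstream window is shown because it holds 3 overlapping matches to the 3-unit motif, in capitals.
CHORDC1 (chr11:90223000-90223299, minus strand): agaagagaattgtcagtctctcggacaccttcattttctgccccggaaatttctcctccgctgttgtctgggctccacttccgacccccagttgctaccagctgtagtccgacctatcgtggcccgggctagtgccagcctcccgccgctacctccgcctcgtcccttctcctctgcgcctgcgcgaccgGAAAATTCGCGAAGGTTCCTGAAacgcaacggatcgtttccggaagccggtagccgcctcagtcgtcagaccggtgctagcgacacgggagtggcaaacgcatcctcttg
No other member's windows held as many.

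BAG3, which links HSP70 to autophagy, had 90.1, 76.3 and 84.0 CPM in CAR, 77.6, 79.7 and 85.9 CPM in LG, 71.5, 75.9 and 76.2 CPM in LGCAR, and 90.7, 95.1 and 91.5 CPM in NG. STIP1 (HOP), which joins HSP70 to HSP90, had 314, 291 and 297 CPM in CAR, 268, 277 and 286 CPM in LG, 258, 260 and 273 CPM in LGCAR, and 305, 308 and 325 CPM in NG. For both genes all LG and LGCAR libraries lay below all NG libraries, and all CAR libraries of BAG3 did as well. BAG3 changed by -0.31 in LGCAR (SE 0.0620, edgeR adjusted p = 0.0102) and by -0.19 in LG (edgeR adjusted p = 0.142). STIP1 changed by -0.25 in LGCAR (SE 0.0486, edgeR adjusted p = 0.00945) and by -0.17 in LG (edgeR adjusted p = 0.0836). AHSA1, the activator of HSP90's ATPase, changed by -0.21 and FKBP4, an HSP90-bound prolyl isomerase of steroid receptor complexes, by -0.23 in LGCAR (edgeR adjusted p = 0.0244 and 0.0154).

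In LGCAR against NG the call of BAG3 was lost without LGCAR 1 (edgeR adjusted p = 0.0604), that of STIP1 without NG 3 or LGCAR 1 (up to 0.0615), that of FKBP4 without NG 2, NG 3 or LGCAR 1 (up to 0.0818), and that of AHSA1 without any library but NG 1 (up to 0.127). BAG1, BAG2 and PTGES3 were not called. BAG1, a nucleotide exchange factor of HSP70, had 51.1, 40.3 and 41.5 CPM in CAR, 50.7, 53.4 and 52.4 CPM in LG, 46.8, 52.8 and 52.1 CPM in LGCAR, and 47.6, 49.3 and 50.1 CPM in NG. It was the only member whose LG libraries all lay above all NG libraries, with a log2 fold change of 0.09 (edgeR adjusted p = 0.642). PTGES3 (p23), which steadies closed HSP90, had -0.11 in LG and -0.17 in LGCAR, and BAG2 had -0.16 and -0.09. BAG2 shares 44.2% and FKBP4 11.4% of the exon length with genes on the opposite strand.

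The 7 CCT ring genes among the members encode subunits of the chamber that folds actin and tubulin. CCT6A, another subunit, is not a member. It was called lower in LG and LGCAR against NG and in LGCAR against CAR, with values given below. None of the 7 members was called in LG, and TCP1, CCT3 and CCT5 fell in LGCAR, while 4 were not called. TCP1 had 218, 204 and 217 CPM in CAR, 196, 198 and 205 CPM in LG, 194, 193 and 188 CPM in LGCAR, and 213, 214 and 228 CPM in NG. CCT3 had 281, 268 and 270 CPM in CAR, 250, 264 and 275 CPM in LG, 247, 257 and 257 CPM in LGCAR, and 277, 282 and 305 CPM in NG. The LGCAR libraries of both lay below all NG libraries, and so did the LG libraries.

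CCT5 had 434, 413 and 416 CPM in CAR, 395, 415 and 439 CPM in LG, 381, 401 and 391 CPM in LGCAR, and 418, 445 and 470 CPM in NG. Its LGCAR libraries lay below all NG libraries, and its LG libraries overlapped them. TCP1 changed by -0.19, CCT3 by -0.18 and CCT5 by -0.19 in LGCAR (SE 0.0468, 0.0510 and 0.0535, edgeR adjusted p = 0.0261, 0.0371 and 0.0423). Each of these 3 calls was lost without any library but NG 1, with edgeR adjusted p up to 0.138, 0.182 and 0.194. The log2 fold changes of the 7 subunits lay within -0.13 and -0.06 in LG and within -0.19 and -0.12 in LGCAR. CCT5 shares 30.1% of its exon length with an antisense gene.

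SERPINH1 (HSP47), the collagen chaperone of the ER, had 237, 218 and 215 CPM in CAR, 216, 218 and 223 CPM in LG, 203, 217 and 218 CPM in LGCAR, and 237, 244 and 232 CPM in NG. All LG and LGCAR libraries lay below all NG libraries, and it was not called (log2 fold change -0.12 in LG and -0.16 in LGCAR, edgeR adjusted p = 0.255 and 0.0518). For comparison, 18 general ER chaperones and folding factors were tested in LG against NG, LGCAR against NG and LGCAR against CAR. Of all tested genes, 0.728%, 4.12% and 0.675% were called lower in these comparisons, and 1%, 4.63% and 0.973% higher. Of the 18 ER genes 3, 10 and 5 were called lower, and none was called higher. Their median log2 fold change was -0.10 in LG and -0.21 in LGCAR, and HSPA5 (BiP), HYOU1 and DNAJB9, which serve the ER as HSP70, nucleotide exchange factor and HSP40, fell by 0.36, 0.30 and 0.34 on the log2 scale in LGCAR. The difference between the ER genes and the cytosolic and mitochondrial ones was not tested.

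**Figure D4:**
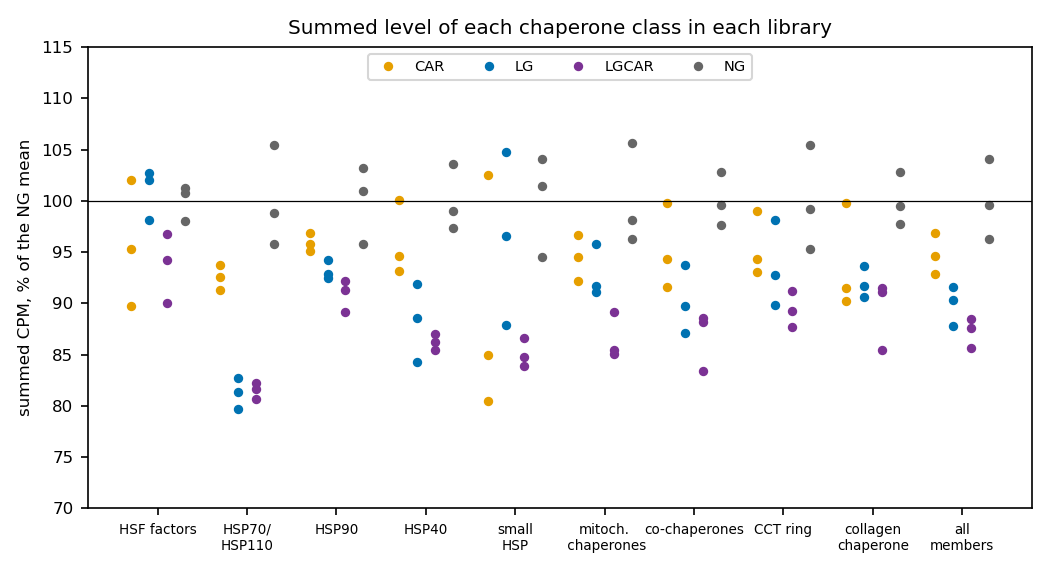
Summed CPM of each class in each library, as a percentage of the NG mean of that class, with groups ordered CAR, LG, LGCAR and NG; the axis starts at 70%. The HSP70 and HSP110 sums of LG and LGCAR are the lowest class sums, at 81.3% and 81.5% on average, and the LG libraries of the HSF factors lie around 101%.

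Summed over all 44 members, the level was 11915 ± 251 CPM in CAR, 11306 ± 240 CPM in LG, 10971 ± 185 CPM in LGCAR and 12577 ± 495 CPM in NG (SD, n = 3 each), or 94.7%, 89.9% and 87.2% of the NG mean. By class, the HSF factors stood at 100.9% in LG and 93.7% in LGCAR, the small heat shock proteins at 96.4% and 85.1%, with 89.3% in CAR, HSP90 at 93.2% and 90.9%, HSP40 at 88.2% and 86.2%, the mitochondrial chaperones at 92.9% and 86.5%, the co-chaperones at 90.2% and 86.7% and the CCT ring at 93.6% and 89.4%.

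The change with cariporide was compared at both glucose levels, and no member was called at either. In CAR against NG edgeR called 0 of 42 members, with 4 at an unadjusted p under 0.05, all lower (HSPA1B, HSPA8, HSPB1 and BAG3), and DESeq2 called 0, with 5. Of all 15104 genes edgeR called 0% in this comparison. Of the 42 members 36 had a log2 fold change below 0, as had 7482 of all 15104 genes. The lowest value of a member was -0.19 for DNAJB5 and the highest 0.11 for HSPA4L. In LGCAR against LG edgeR called 0 members, with 5 at an unadjusted p under 0.05, and DESeq2 called 0, with 5, where 0.00662% of all tested genes were called. Those 5 were HSF1 (-0.12), DNAJB1 (-0.12), HSPB1 (-0.18) and HSPA9 (-0.13) on the lower side and HSPA4L (0.25) on the higher side. How many of all genes had an unadjusted p under 0.05 is not given here, so no share stands beside these counts. All 3 LGCAR libraries lay below all LG libraries in 11 members and above them in 2, HSPA4L and BAG2, against 10.5% and 10.9% of all tested genes.

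The members with the smallest difference between LGCAR and LG were HSPA8 and DNAJA1. HSPA8 averaged 1452 ± 23.3 CPM in LGCAR and 1452 ± 59.8 CPM in LG, and DNAJA1 averaged 207 ± 3.97 CPM in LGCAR and 207 ± 8.24 CPM in LG (SD, n = 3 each), with SEs of the log2 fold change of 0.0598 and 0.0548. The interaction, defined as LGCAR minus LG less the difference of CAR and NG, was called in 0 of 42 members by edgeR and by DESeq2, with 0 at an unadjusted p under 0.05 in either, where edgeR called 0.00662% of all tested genes. Its values ran from -0.24 for HSPB8 to 0.26 for HSPA2. No difference in the response of a member to cariporide between the glucose levels was detectable, with an SE of the interaction of 0.0727 for HSPA1A and 0.0845 for HSPA8.

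With cariporide present at both glucose levels, LGCAR against CAR, 5 of 42 members fell (HSPA1A, HSPA1B, DNAJA1, DNAJB1 and CHORDC1) and none rose, while 1.65% of all tested genes were called, 0.675% lower and 0.973% higher. The log2 fold changes were -0.27 for HSPA1A, -0.21 for HSPA1B, -0.24 for DNAJA1, -0.23 for DNAJB1 and -0.28 for CHORDC1 (edgeR adjusted p = 0.0141, 0.0285, 0.0349, 0.0297 and 0.0196). HSPA8 had -0.22 and missed the threshold (edgeR adjusted p = 0.0769). All 3 LGCAR libraries lay below all CAR libraries in 26 members and above them in 0, against 11.9% and 13.4% of all tested genes, and the median of the members was -0.11. The LGCAR libraries are those used against NG as well. No call was left without CAR 3 or without LGCAR 3, 1 without LGCAR 1 and 1 without LGCAR 2. Of all tested genes, 29, 24, 18 and 16 were called lower without CAR 3, LGCAR 3, LGCAR 1 and LGCAR 2, in place of 102. Without CAR 1, 3 members stayed lower and BAG1 was called higher (log2 fold change 0.30, edgeR adjusted p = 0.0170). The share of ribosomal RNA was 10.2% in LGCAR and 7.87% in CAR, and with that share as a covariate 0 members were called by edgeR and only 18 genes in all, 9 of them lower, against 102 lower without the covariate. With the covariate the log2 fold changes were -0.27 for HSPA1A, -0.24 for HSPA1B, -0.14 for DNAJA1, -0.16 for DNAJB1 and -0.20 for CHORDC1.

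The 3-unit motif was present in 8 of the 40 members with a RefSeq promoter window: HSPA8, HSP90AA1, HSP90AB1, DNAJA1, DNAJB6, HSPD1, CHORDC1 and SERPINH1. By window, 8 of 58 windows of members (13.8%) and 172 of all 35116 windows of the same length (0.49%) held it on either strand. A 2-unit motif, GAANNTTC or TTCNNGAA, stood in 23 windows of members (39.7%) and in 13.5% of all windows, and each 3-unit match contains 2-unit matches. Of the 6 members that fell in LG 3 had a 3-unit match, and of the 33 with a window that were not called 5 had one. In LGCAR 5 of the 15 with a window that fell had one, and 3 of the 24 that were not called. The median log2 fold change of the 8 members with a match was -0.14 in LG and -0.19 in LGCAR, and that of the 31 tested members with a window and no match was -0.11 and -0.17. A match describes letters in the window and does not show binding. Only exact matches were counted, so a window without a match is not shown to lack a heat shock element.

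Of 73 other genes of the same pathways, listed with earlier results of these data known, 63 were tested. In LG against NG 1 of them fell, while 0.728% of all tested genes fell: CCT6A, another CCT subunit, with a log2 fold change of -0.21 (edgeR adjusted p = 0.0302). In LGCAR against NG 9 fell, 2 rose and 52 were not called, while 4.12% of all tested genes fell and 4.63% rose, with a median of -0.11 against -0.17 for the members. The genes that fell included CCT6A (-0.26), the kinase-specific HSP90 co-chaperone CDC37 (-0.25), the HSP70 co-chaperones SGTA (-0.24) and TTC1 (-0.23), the prefoldin subunit PFDN2 (-0.26), and GRPEL1 (-0.24), the nucleotide exchange factor of HSPA9. Of the other HSP40 genes, DNAJC2 (-0.30) and DNAJC9 (-0.18) fell, and DNAJC13 (0.29), which acts on endosomes, and DNAJC6 (0.23), the auxilin that uncoats clathrin vesicles and was chosen after its value was seen, rose. In LGCAR against CAR 1 of the 63 was called, while 1.65% of all tested genes were called: CCT6A, with a log2 fold change of -0.21 (edgeR adjusted p = 0.0330).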

How the data were processed

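RNA of 12 MDA-MB-231 libraries was measured by RNA sequencing, with total RNA extracted by Trizol and made into libraries with a stranded NEBNext kit, per the labels' protocols. The authors deposited counts per gene symbol, 1 table for each library, not normalized. The genome GRCh38 and the tools STAR, Salmon, GATK and fastp are named in the submitters' processing notes; which of them made the counts, their versions and how strand was used is not stated in the labels. Depths are given above.

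Groups came from the labels. CPM, TMM factors and log2 fold changes were computed here with edgeR 4.0.16 in R 4.3.3: genes passing filterByExpr by group were tested with the robust quasi-likelihood test over all 12 libraries, 1 mean a group, with Benjamini-Hochberg adjustment over 15104 genes and a threshold of 0.05. The standard error is the log2 fold change divided by the root of F. The members, classes and other lists were chosen with earlier results of these data known. By rule, values in every library were given for HSF1, HSF2, HSPA1A, HSPA1B and up to 3 members of each class with the smallest p in LGCAR against NG, plus, in each other comparison, at most 2 of those called; BAG1 and others outside it were chosen after their values were seen. Of the other lists, up to 3 called genes each were named. Coordinates and promoter windows are RefSeq's on GRCh38.p14 (44 members found, 40 with a window). Exon overlap and lengths are from GENCODE, where 43 members were found. The length used for CPM per kb is that of the merged exons of all coding transcripts in GENCODE's basic set, not of 1 transcript.

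Alternatives were other scalings and filters, DESeq2 1.42.0, the compared groups alone, replicate number as a block, ribosomal RNA genes left out, ribosomal RNA share as a covariate, NG 1 and LGCAR 3 (the highest shares) left out together, HSPA1A and HSPA1B summed, and each library left out. Plots used matplotlib 3.10.9 (Python 3.11.15).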

Additional observations from a re-analysis of the deposited data

How the results depend on the processing

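In each of the other settings run, CAR against NG, LGCAR against LG and the interaction had 0 members called. In LG against NG, where 6 members and 110 of all genes fell, 10 members and 182 genes fell by DESeq2 and 12 members and 265 genes with the ribosomal RNA share as a covariate. Leaving out 1 library gave 2 to 7 members, while 83 to 364 of all genes were called in either direction. In LGCAR against NG, where 16 members and 622 of all genes fell, 25 members and 914 genes fell by DESeq2, 31 members and 1649 genes with the compared groups alone, and 8 members and 139 genes without NG 1 and LGCAR 3 together. Leaving out 1 library gave 5 to 22 members, while 136 to 1544 of all genes were called in either direction. In LGCAR against CAR, where 5 members and 102 of all genes fell, 0 members fell with the ribosomal RNA share as a covariate (9 genes) or without NG 1 and LGCAR 3 (18 genes), and leaving out 1 library gave 0 to 5 members. Over all genes, leaving out 1 library gave 51 to 188 calls in LGCAR against CAR. With HSPA1A and HSPA1B summed the counts of members were 4, 16 and 4, while 258, 1336 and 240 of all genes were called. The cause of these moves was not tested.

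Over 18 same-numbered pairs of libraries the deviations from the group means correlated at -0.111 to 0.135, 2 of them over 0.1. Over 36 pairs with different numbers they correlated at -0.197 to 0.228, 5 of them over 0.1. For 3 libraries the best match had their own number. These correlations cannot show whether libraries with the same number were prepared together. With replicate number as a block, 0, 5, 13, 0, 2 and 0 members were called in the comparisons of CAR, LG and LGCAR with NG, of LGCAR with LG and with CAR, and in the interaction. Of all genes, 54, 319 and 52 were called lower with the block in LG against NG, LGCAR against NG and LGCAR against CAR. Without the block these numbers were 110, 622 and 102, so calls over all genes dropped as well.

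HSPA1B and HSPA8 stayed called in LG against NG, and HSPA1A, HSPA1B, HSPA8, DNAJB1 and CHORDC1 in LGCAR against NG, in each setting run that kept their row. No called value turned its direction. Values near 0 that were not called did. In LGCAR against LG, HSPA8 (0.00) was -0.00062 with RLE factors, -0.023 with library totals, -0.012 with no filter, -0.00061 by DESeq2, -0.0012 without ribosomal RNA genes, -0.0090 without NG 1 and LGCAR 3 and -0.0045 with HSPA1A and HSPA1B summed, and -0.041 to 0.019 with 1 library left out. There DNAJA1 was 0.0046 with a filter at 5 CPM and -0.037 to 0.025 with 1 library left out, and with the ribosomal RNA share DNAJA1 was 0.068, DNAJB6 0.030 and HSPE1 0.068. With that share HSPB1 was 0.014 and HSPE1 0.011 in LGCAR against CAR, and HSPB8 -0.039 in CAR against NG. HSF2 was -0.032 with library totals and -0.0058 with no filter in LGCAR against CAR, and TCP1 0.0021 with library totals in CAR against NG. With 1 library left out, DNAJB6 ran from -0.046 to 0.021 and HSF2 from -0.15 to 0.016 in LGCAR against LG. The ranges in LGCAR against CAR were -0.085 to 0.0066 for HSF1, -0.063 to 0.094 for HSF2 and -0.13 to 0.059 for HSPB1. Against NG they were -0.0058 to 0.16 for HSF2 in LGCAR, -0.12 to 0.010 for HSPB1 and -0.16 to 0.034 for HSPB8 in LG, and -0.087 to 0.0067 for DNAJA1, -0.030 to 0.16 for HSPB8 and -0.14 to 0.042 for HSPE1 in CAR.

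DNAJA4 and CRYAB had too few counts to pass the filter and were not tested, and HSPA2, at about 1 CPM, had an SE of 0.319 in LG against NG.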
